A study of Mus musculus with 16 samples.

Results

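The genes described here are 10 members of the mouse piRNA pathway, namely the PIWI genes Piwil2 and Piwil4, the Tudor-domain genes Tdrd1, Tdrd5, Tdrd9 and Tdrd12, and the cofactor genes Mael, Asz1, Mov10l1 and Gtsf1. Every array probe annotated to one of these symbols was taken, which gave 16 probes for the 10 genes, out of 32664 probes for 19532 genes. After a filter on weak signals, 9 of the 10 genes were among the 16582 genes tested, and Piwil4 was not.

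The samples were whole gonads of mouse embryos, measured on one-colour Agilent arrays. There were 4 groups, which were male Nanos3-/- (knockout), male Nanos3+/- (heterozygous), female Nanos3-/- and female Nanos3+/- gonads, each with 1 sample from embryonic day (E) 12.5, 13.5, 14.5 and 15.5. Nanos3 codes for an RNA-binding protein on which the survival of primordial germ cells depends, and all controls carried 1 mutant copy of it. Each sample joins replicates 1 and 2 by its title, so the 4 days stand in as the replicates of a group, and p-values rest on the spread between days. No label names a strain or a number of embryos, nothing says that samples came from separate litters, and the free-text descriptions call the female samples male although their titles, sources and sex entries say female.

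piRNAs are small RNAs that germ cells load onto PIWI proteins to recognise and silence transposons. Their precursors are bound by a helicase and cut at the surface of mitochondria, in granules held together by Tudor-domain proteins that bind methylated arginines of the PIWI proteins. In fetal testes the pathway also guides DNA methylation to transposons while germ cells are arrested in the cell cycle, and fetal ovarian germ cells make PIWI proteins and piRNAs as well.

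RefSeq promoter windows (GRCm38.p6, 250 bases before to 50 bases after the annotated start) were found for 9 of the 10 genes, all but Piwil2. The letters CACGTG, the E-box read the same on both strands, occurred in 4 of these 9 windows, against 9.28% of the windows of 13271 tested genes. These 4 windows are shown because they are the ones that hold these letters, and they were picked after the letters had been counted. Where a gene had several windows, as Tdrd1 did, the one farthest upstream was used. Capitals mark CACGTG, and each sequence runs 5′ to 3′ on the strand of the gene.
Tdrd1: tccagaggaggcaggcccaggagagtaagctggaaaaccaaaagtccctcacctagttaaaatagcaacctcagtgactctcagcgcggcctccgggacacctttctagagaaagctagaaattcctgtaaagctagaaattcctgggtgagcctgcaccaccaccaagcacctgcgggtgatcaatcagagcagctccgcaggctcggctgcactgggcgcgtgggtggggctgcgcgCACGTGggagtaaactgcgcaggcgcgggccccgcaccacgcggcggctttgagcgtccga
Tdrd9: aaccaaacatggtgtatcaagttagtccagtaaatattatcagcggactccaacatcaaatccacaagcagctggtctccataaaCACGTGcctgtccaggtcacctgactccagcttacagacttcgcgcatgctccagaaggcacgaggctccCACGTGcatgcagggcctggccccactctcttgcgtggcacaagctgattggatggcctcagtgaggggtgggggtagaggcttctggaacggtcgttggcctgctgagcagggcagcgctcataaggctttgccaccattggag
Mael: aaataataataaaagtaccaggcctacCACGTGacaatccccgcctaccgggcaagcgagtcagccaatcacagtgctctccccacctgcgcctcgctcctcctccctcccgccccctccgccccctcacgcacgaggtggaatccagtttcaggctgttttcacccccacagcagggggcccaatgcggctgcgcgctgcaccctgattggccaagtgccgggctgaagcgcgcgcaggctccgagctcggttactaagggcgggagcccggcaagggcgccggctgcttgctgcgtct
Mov10l1: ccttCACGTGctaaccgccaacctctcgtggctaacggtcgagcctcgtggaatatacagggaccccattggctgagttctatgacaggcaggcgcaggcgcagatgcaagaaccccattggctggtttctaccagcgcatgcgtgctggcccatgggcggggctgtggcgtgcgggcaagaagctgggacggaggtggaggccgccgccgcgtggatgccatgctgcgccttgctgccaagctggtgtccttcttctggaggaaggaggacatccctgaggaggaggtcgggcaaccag
The Tdrd1 window lies at chr19:56825959-56826258 on the plus strand and has the letters at -11 relative to the start. The Tdrd9 window, chr12:111971309-111971608 on the plus strand, has them at -165 and -95. The Mael window lies on the minus strand at chr1:166238695-166238994, with the letters at -223. The Mov10l1 window, chr15:88982744-88983043 on the plus strand, has them at -246. Other letters were near or below the share over all windows on either strand, with TCCCGC in 2 of 9 windows (31.6% of all), GGGCGG in 4 of 9 (56.9%), CCAAT in 3 of 9 (38.7%) and TATAAA in 1 of 9 (9.65%, in Piwil4). TCCCGC and GGGCGG can overlap, as they did in Mael. The ratio of observed to expected CpG ran from 0.341 in Tdrd12 to 1.11 in Tdrd5, with a median of 0.674 over the 9 windows and 0.702 over all.

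The deposited values were read as ratios, relative for each probe, so levels were compared between samples and never between genes. Weak signals were raised to a limit shared by all samples. Between 1554 and 11174 probes per sample were at the limit of their own sample. Nanos3 itself had ratios of 0.967, 1.02, 0.756 and 0.613 in male knockouts from E12.5 to E15.5, against 3.23, 11.3, 7.91 and 1.89 in male heterozygotes. In females the Nanos3 ratios were 0.713, 1.11, 0.708 and 0.813 in knockouts, against 2.04, 1.21, 0.609 and 0.568 in heterozygotes. The Nanos3 difference passed the test in males (-2.55 ± 0.41, log2 ± SE, adjusted p = 0.003627) and missed it in females (-0.23 ± 0.41, adjusted p = 0.7088), while the test between the sexes gave -2.33 ± 0.58 (adjusted p = 0.1044). Where its probe lies relative to the deleted part is not given in the sources used here, so it does not check the labels. The germ cell gene Dazl, an RNA-binding protein gene outside the pathway, fell in male knockouts (-7.02 ± 0.45, adjusted p = 6.975e-05) and in female knockouts (-6.94 ± 0.45, adjusted p = 6.817e-05). Sertoli cell genes, medians over 6 genes on the log2 scale, ran from 0.80 to 1.76 in the 8 male samples and from -2.98 to -1.81 in the 8 female samples, and pre-granulosa genes ran from -1.92 to -1.07 in males and from 0.77 to 1.83 in females.

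Knockout gonads of both sexes had far less RNA of the piRNA pathway. All 9 tested members fell in male knockouts, where 12.6% of all tested genes fell, and all 9 fell in female knockouts, where 13.0% of all tested genes fell (limma, adjusted p under 0.05 over 16582 genes). The median difference over the 9 genes was -6.88 in males and -5.51 in females (log2, knockout minus heterozygous), beside 0.12 and 0.11 over all tested genes. On every day each of the 9 genes was lower in the knockout sample than in the heterozygous one of that sex. For none did the 4 knockout samples overlap with the 4 heterozygous samples. No share over all tested genes is given for these counts by day and by overlap. The counts cover only genes that passed the filter. Asz1 was above the limit only in the 8 heterozygous samples and Mov10l1 in these and 1 knockout sample, so both could pass it only by being higher in heterozygotes. In whole gonads, fewer germ cells and less RNA per germ cell cannot be told apart.

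**Figure D1:**
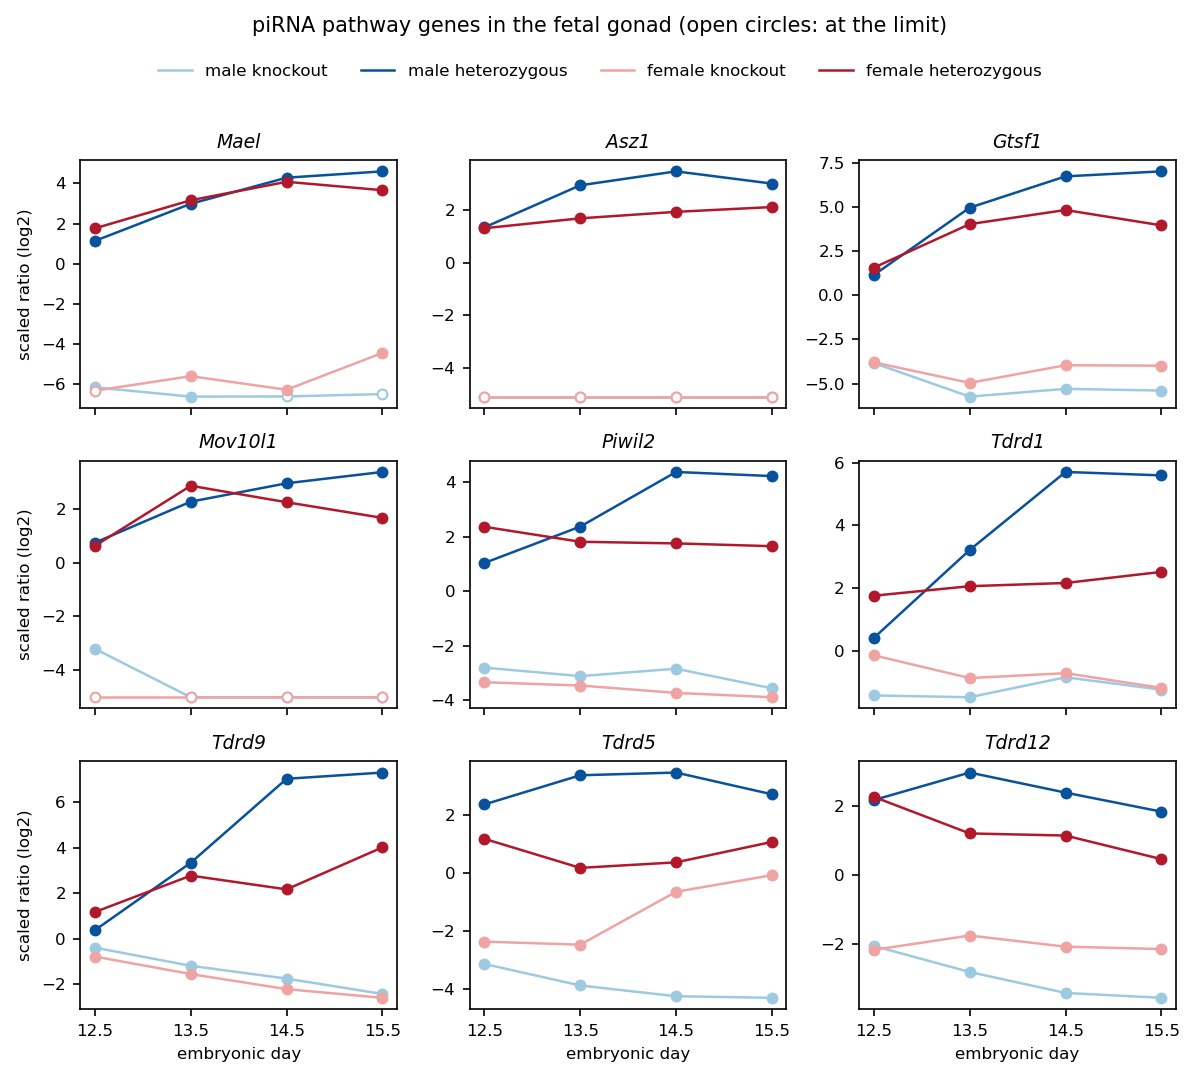
Deposited ratio, after scaling, of each piRNA pathway gene (log2, vertical axis) by embryonic day (horizontal axis) in the 4 groups, 1 sample per point, with open circles for values at the limit or at the lowest deposited value. The knockout lines lie below the heterozygous lines of the same sex in all 9 panels, and for Tdrd9, Tdrd1 and Piwil2 the male heterozygous line climbs above the female one after E12.5; the Asz1 knockout lines of both sexes lie on top of each other.

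Piwil2 codes for MILI, a PIWI protein that cuts transposon and precursor RNA. Piwil2 ratios were 0.142, 0.115, 0.138 and 0.084 in male knockouts from E12.5 to E15.5, against 2.05, 5.17, 20.8 and 18.7 in male heterozygotes. In females, Piwil2 had 0.0981, 0.0903, 0.0748 and 0.067 in knockouts, against 5.15, 3.51, 3.37 and 3.14 in heterozygotes. The lowest heterozygous samples were the male one of E12.5 and the female one of E15.5, and even these lay well above every knockout sample. The difference was -6.09 ± 0.53 in males (68.3-fold lower, adjusted p = 0.0002978) and -5.51 ± 0.53 in females (45.6-fold lower, adjusted p = 0.0004711). The other Piwil2 probe was at the limit in all 16 samples and shows nothing of the gene. Piwil4 codes for MIWI2, the nuclear PIWI protein that directs methylation in fetal male germ cells. Its single probe was at the common limit in all 16 samples, at the limit of the sample itself in 11 and between that and the common limit in the other 5, so no level or difference of Piwil4 was measured.

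Among the Tudor-domain genes the size of the knockout difference varied with sex and day, and by the probes tested all 4 had signal above the limit in every knockout sample. Where a gene had 2 probes, the one less often at the limit was tested, which favours signal above it. Tdrd1 codes for a scaffold that binds MILI. Its ratios were 0.372, 0.358, 0.556 and 0.423 in male knockouts, against 1.33, 9.27, 52.1 and 48.3 in male heterozygotes. In females Tdrd1 had 0.903, 0.546, 0.609 and 0.439 in knockouts, against 3.38, 4.17, 4.47 and 5.72 in heterozygotes. The male knockout and heterozygous samples were closest at E12.5 and parted widely from E14.5. The Tdrd1 difference was -4.98 ± 0.75 in males (adjusted p = 0.002945) and -2.85 ± 0.75 in females (adjusted p = 0.01969). With its other probe the female difference was -2.02 ± 0.74 and missed the threshold (adjusted p = 0.06823), as it did without the day block and without E13.5, E14.5 or E15.5 (up to 0.112). By that other probe, 6 knockout samples were at the limit.

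Tdrd9 codes for a helicase with a Tudor domain that works with MIWI2. Its ratios were 0.764, 0.44, 0.298 and 0.187 in male knockouts, against 1.3, 10.1, 129 and 156 in male heterozygotes. In females Tdrd9 had 0.582, 0.342, 0.216 and 0.166 in knockouts, against 2.25, 6.82, 4.49 and 16.1 in heterozygotes. At E12.5 the male knockout sample was only 1.70-fold below its heterozygous partner, the smallest gap of any member on any day, and by E15.5 it was 836-fold below. The fitted difference over the days was -5.94 ± 1.35 in males (adjusted p = 0.01189) and -4.31 ± 1.35 in females (adjusted p = 0.03833), with the widest error of the 9 genes. Leaving out any one of E13.5, E14.5 and E15.5 ended the Tdrd9 call in both sexes, with adjusted p of up to 0.0899 in males and 0.151 in females over the alternatives.

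Tdrd5 codes for a Tudor- and LOTUS-domain protein that binds piRNA precursors. Its ratios were 0.113, 0.0678, 0.0524 and 0.0504 in male knockouts, against 5.16, 10.4, 11.1 and 6.58 in male heterozygotes. In females Tdrd5 had 0.193, 0.18, 0.639 and 0.949 in knockouts, against 2.27, 1.13, 1.29 and 2.1 in heterozygotes. Male knockouts were low on all days, whereas the female knockout samples of E14.5 and E15.5 came close to the heterozygous ones. The difference was -6.88 ± 0.46 in males (118-fold lower, adjusted p = 7.367e-05) and -2.09 ± 0.46 in females (4.26-fold lower, adjusted p = 0.01053). Without E13.5 the female difference missed the threshold (adjusted p = 0.0856). By its other probe no knockout sample exceeded the limit of 0.756, and the ratios were 15.1, 29.0, 42.2 and 30.7 in male heterozygotes and 13.1, 4.6, 1.81 and 4.02 in female heterozygotes. Tdrd5 fell in both sexes by that probe too, with -5.18 ± 0.61 in males (adjusted p = 0.001342) and -2.60 ± 0.61 in females (adjusted p = 0.01401).

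Tdrd12 codes for a Tudor-domain helicase relative that forms a complex with PIWI proteins. Its ratios were 0.238, 0.141, 0.092 and 0.0834 in male knockouts, against 4.55, 7.93, 5.29 and 3.6 in male heterozygotes. In females Tdrd12 had 0.22, 0.294, 0.235 and 0.224 in knockouts, against 4.85, 2.32, 2.22 and 1.38 in heterozygotes. The gap widened after E12.5 in males and was at its widest at E12.5 in females. The difference was -5.34 ± 0.33 in males (40.4-fold lower, adjusted p = 6.241e-05) and -3.33 ± 0.33 in females (10.03-fold lower, adjusted p = 0.0005057). Both Tdrd12 probes gave these knockout calls.

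The 4 cofactor genes fell in both sexes as well. Mael codes for Maelstrom, which is needed for transposon silencing. Its ratios were 0.0142, 0.0103, 0.0103 and 0.0112 in male knockouts, against 2.2, 7.93, 19.5 and 24.3 in male heterozygotes. In females Mael had 0.0126, 0.0208, 0.013 and 0.0463 in knockouts, against 3.4, 8.96, 16.9 and 12.7 in heterozygotes. Of the 8 Mael knockout values, 3 stood at the lowest deposited ratio of 0.01, so the differences may be larger in size than fitted. These were -9.71 ± 0.63 in males (838-fold lower, adjusted p = 6.975e-05) and -8.82 ± 0.63 in females (451-fold lower, adjusted p = 9.615e-05).

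Gtsf1 codes for a zinc-finger protein that helps PIWI proteins to cut their targets. Its ratios were 0.0699, 0.0187, 0.0253 and 0.0237 in male knockouts, against 2.21, 31.2, 107 and 130.0 in male heterozygotes. In females Gtsf1 had 0.0717, 0.032, 0.0641 and 0.0629 in knockouts, against 2.96, 16.4, 28.5 and 15.6 in heterozygotes. Heterozygous samples of both sexes were lowest at E12.5, and no knockout sample exceeded 0.0717. The difference was -10.04 ± 1.13 in males (1053-fold lower, adjusted p = 0.001041) and -7.78 ± 1.13 in females (219.5-fold lower, adjusted p = 0.002461). The other Gtsf1 probe gave -9.63 ± 0.93 and -8.17 ± 0.93 (adjusted p = 0.0005073 and 0.000918). Of the values of that probe, 6 were at the limit, so these errors may be too small.

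Asz1 codes for GASZ, which anchors the pathway's granules at mitochondria. No knockout sample of either sex exceeded the limit of its probe, a ratio of 0.029. The heterozygous ratios were 2.54, 7.72, 11.2 and 8.08 in males and 2.48, 3.22, 3.83 and 4.34 in females, all far above it. Asz1 was therefore at least 224-fold lower in male knockouts (adjusted p = 4.347e-05) and at least 117-fold lower in female knockouts (adjusted p = 1.895e-05). It passed the filter only through heterozygous samples. Its knockout groups, wholly at the limit, add no spread, so these p-values may be too small.

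Mov10l1 codes for the RNA helicase that binds piRNA precursors. Its ratios were 0.108, 0.0311, 0.0311 and 0.0311 in male knockouts, against 1.68, 4.84, 7.78 and 10.4 in male heterozygotes. In females Mov10l1 had 0.0311 in all 4 knockouts, against 1.54, 7.29, 4.77 and 3.18 in heterozygotes. A ratio of 0.0311 is the limit of this probe, so the male knockout of E12.5 was the only knockout sample with measured signal. Mov10l1 was at least 116-fold lower in female knockouts (adjusted p = 0.0005057), and the fitted difference in males was -6.90 ± 0.68 (adjusted p = 0.0004927). By its other probe, whose limit is higher at 0.278, no knockout sample was above the limit, the male one of E12.5 included, and the differences were smaller at -3.47 ± 0.22 in males and -3.76 ± 0.22 in females (adjusted p = 6.56e-05 and 3.14e-05). Knockout groups wholly at the limit add no spread, so p-values of Mov10l1 that rest on them may be too small.

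**Figure D2:**
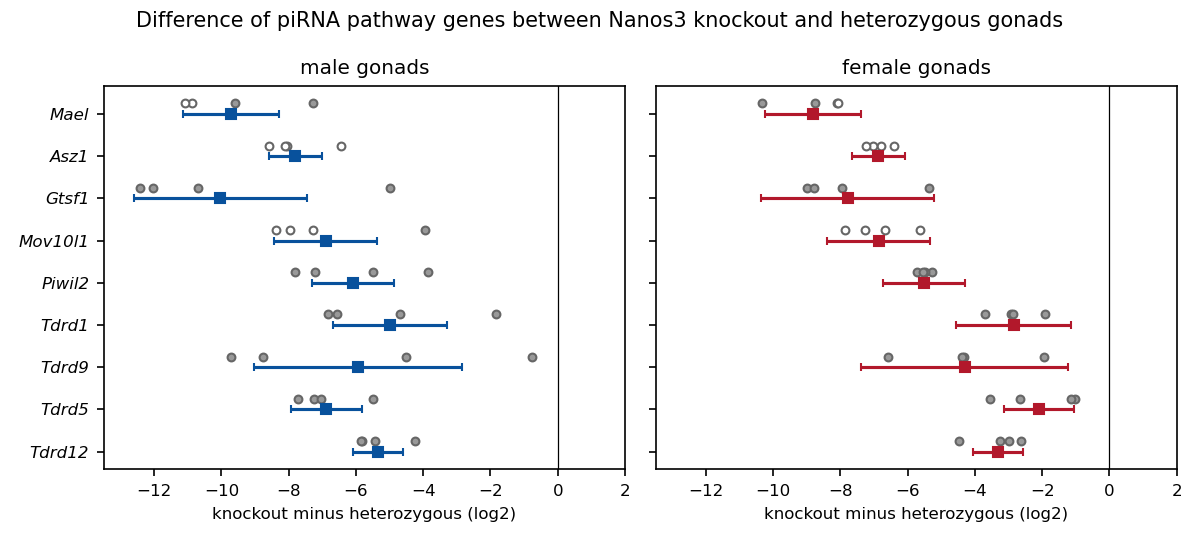
Knockout minus heterozygous difference (log2, horizontal axis) of the 9 tested piRNA pathway genes in male (left) and female (right) gonads. Squares are the limma estimates with 95% intervals and the dots above them single days, open where the knockout value was at the limit or at the lowest deposited value; all estimates lie below 0, from -10.04 for Gtsf1 in males to -2.09 for Tdrd5 in females.

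Marker genes outside the pathway moved with the knockout too. Of 7 germ cell genes outside the pathway, 5 fell in male knockouts and 3 in female knockouts, and all 6 meiosis genes fell in both sexes (5 with the arrays as deposited). The 4 genes of male fetal germ cells (Nanos2, Dnmt3l, Nodal and Lefty1) all fell in male knockouts (median -4.33), and none was called in female knockouts by limma, with 0 at an unadjusted p under 0.05 (median -0.04). Of the meiosis genes 2 (Sycp1 and Sycp2) and of the male genes 1 (Nanos2) passed the filter only through heterozygous samples. The median over the 7 germ cell genes ran from -3.20 to -0.55 in male knockouts against 0.69 to 3.14 in male heterozygotes, and from -0.68 to -0.34 in female knockouts against -0.24 to 2.90 in female heterozygotes (log2). Of 4 erythroid genes, 1 (Alas2) rose in male knockouts and 4 in female knockouts, and their median ran from 0.23 to 0.57 in male knockouts against -1.21 to -0.02 in male heterozygotes, and from 0.31 to 5.03 in female knockouts against -1.16 to 0.35 in female heterozygotes. None of these 4 erythroid genes was at the limit in a whole group. Genes of other gonadal cells that were called mostly rose, beside 21.6% of all tested genes in male and 20.9% in female knockouts. In male knockouts these were 3 of 6 Sertoli, 2 of 6 pre-granulosa, 2 of 4 fetal Leydig, 3 of 4 endothelial and 1 of 4 mesonephros genes, while the mesonephros gene Lhx1 fell. In female knockouts they were 2 of 6 Sertoli, 2 of 6 pre-granulosa, 2 of 4 fetal Leydig, 2 of 4 endothelial and 1 of 4 mesonephros genes. With the arrays as deposited none of these rises was called in males, nor that of Alas2, and in females 1 Sertoli, 1 Leydig and all 4 erythroid genes were called higher. The part of RNA from any of these cells in the member differences was not tested.

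By the probes tested, 6 genes had no knockout value at the limit or at the lowest deposited ratio, and their fitted knockout difference was larger in size in males. Of all 9 genes 1, Tdrd5, passed the test of the difference between the sexes. It was -4.79 ± 0.65 for Tdrd5 (95% interval -6.27 to -3.30, males minus females, adjusted p = 0.02509), while 0.458% of all tested genes were called in this direction. The Tdrd5 call was lost with no filter on weak signals and with any one of E13.5, E14.5 and E15.5 left out, with adjusted p of up to 0.272. By the other Tdrd5 probe, with every knockout at its limit, the difference was -2.59 ± 0.86 (adjusted p = 0.1768). Next in size relative to its error was Tdrd12, at -2.01 ± 0.46 (95% interval -3.06 to -0.96, adjusted p = 0.09094). By the other Tdrd12 probe, with 5 knockout values at the limit, the difference was -1.01 ± 0.46 (adjusted p = 0.3041). The intervals of Piwil2, Tdrd1, Tdrd9 and Gtsf1 spanned 0, and were wide for Tdrd9 (-5.99 to 2.73) and Gtsf1 (-5.90 to 1.38). For Asz1, at the limit in all 8 knockout samples, the value is the heterozygous sex difference with its sign turned, and with 7 of 8 Mov10l1 and 3 of 8 Mael knockout values also bounds, the data give no order of the sexes for these 3 genes.

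Among heterozygotes, most members were lower in the male than in the female sample at E12.5, and all were higher in the male sample from E14.5. The median difference of the 9 genes, males minus females, was -0.42 at E12.5, with 3 genes higher and 6 lower in males. It was 0.93 at E13.5, with 7 genes higher. At E14.5 and E15.5 all 9 genes were higher in the male sample, with medians of 1.91 and 1.71. The values at E14.5 ranged from 0.20 for Mael to 4.85 for Tdrd9, and those at E15.5 from 0.89 for Asz1 to 3.28 for Tdrd9. Each day rests on 1 pair of samples, and no share or median over all tested genes is given beside these values by day.

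**Figure D3:**
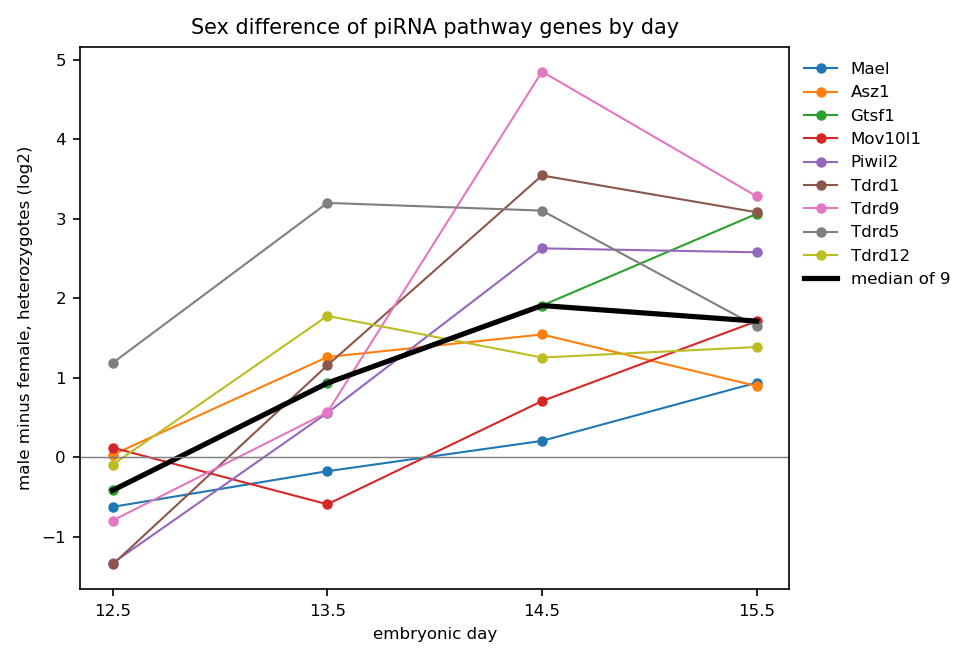
Male minus female difference among heterozygous gonads (log2, vertical axis) by embryonic day (horizontal axis), 1 pair of samples per point, for the 9 tested piRNA pathway genes and their median (black). The median moves from -0.42 at E12.5 to 1.71 at E15.5; Tdrd9 stands highest at E14.5 (4.85), and Mael runs from -0.62 to 0.94.

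Taken over the 4 days, the sex difference passed the test for 2 of the 9 genes, both higher in males, while 11.7% of all tested genes were higher in males. Tdrd5 was higher by 2.28 ± 0.57 (4.86-fold, adjusted p = 0.01879), on all 4 days and with no overlap between the male and female samples. Tdrd12 was higher by 1.08 ± 0.32 (2.11-fold, adjusted p = 0.03905), on 3 of 4 days and with overlap. With any one of E13.5, E14.5 and E15.5 left out, no filter, quantile normalization, no day block or only the groups compared, Tdrd12 missed the threshold (adjusted p of up to 0.215), and Tdrd5 missed it with no filter and without E13.5 or E14.5 (up to 0.112). The largest difference that missed the threshold was that of Tdrd9, at 1.97 ± 0.78 (adjusted p = 0.0969), and the smallest was that of Mael, at 0.09 ± 0.43 (95% interval -0.89 to 1.06, adjusted p = 0.9115). Without E12.5, 7 of the 9 genes were called higher in males, and without E13.5 or E14.5 none was by limma, with 2 at an unadjusted p under 0.05 each time; without E15.5 it was 1, Tdrd5. Beside these, 3 of the 7 germ cell genes (Dppa3, Pou5f1 and Dnd1) were higher in males, as were all 4 genes of male fetal germ cells (median 5.12). All 6 meiosis genes were lower in males (5 with the arrays as deposited), while 12.1% of all tested genes were lower, and the differences of Dazl (-0.24 ± 0.44, adjusted p = 0.7328) and of the pathway's helicase gene Ddx4 (0.01 ± 0.54, adjusted p = 0.992) were small. The part of germ cell numbers in the sex differences was not tested.

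The change over time was tested as a slope per day within the heterozygotes. In males 5 of 9 genes rose (Tdrd9, Gtsf1, Tdrd1, Mael and Piwil2), while 10.7% of all tested genes rose. Tdrd9 rose by 2.44 ± 0.29 per day (5.43-fold per day, adjusted p = 0.0006342), Gtsf1 by 1.94 ± 0.38 (adjusted p = 0.006566) and Tdrd1 by 1.81 ± 0.25 (adjusted p = 0.00134). Mael rose by 1.17 ± 0.25 per day (adjusted p = 0.01041) and Piwil2 by 1.16 ± 0.16 (adjusted p = 0.001149). Slopes of the remaining genes were 0.86 ± 0.28 for Mov10l1, 0.55 ± 0.19 for Asz1, 0.11 ± 0.21 for Tdrd5 and -0.16 ± 0.14 for Tdrd12, none of them called. The male values of the 5 genes climbed mostly between E12.5 and E14.5. Without E12.5 none of the 9 male slopes was called by limma, with 5 rising and 1 falling at an unadjusted p under 0.05, without E14.5 it was 3 (Piwil2, Tdrd1 and Tdrd9), and Mael alone of the 5 was lost without E15.5 or with quantile normalization.

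In female heterozygotes 1 of 9 genes was called, with Tdrd12 falling by 0.55 ± 0.14 per day (adjusted p = 0.03288), while 3.33% of all tested genes fell. That call was lost with the arrays as deposited, with no filter, with array weights and without E12.5, E14.5 or E15.5, and the other probe gave -0.69 ± 0.20 (adjusted p = 0.05663). The female slopes that missed the threshold ran from -0.22 ± 0.16 for Piwil2 to 0.80 ± 0.38 for Gtsf1. Over the same days 4 of the 7 germ cell genes (Pou5f1, Dppa3, Tfap2c and Dnd1) fell in female heterozygotes. Dazl alone of the 7 fell in male heterozygotes, where 964 of 16582 tested genes fell.

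The slopes themselves differed between the sexes for 2 of the 9 genes, steeper in males for both, while 2.23% of all tested genes were called in that direction. The difference was 1.38 ± 0.22 per day for Piwil2 (95% interval 0.89 to 1.86, adjusted p = 0.01105) and 1.57 ± 0.36 for Tdrd1 (0.79 to 2.35, adjusted p = 0.03776). Both Tdrd1 probes gave the call, the other one with 1.73 ± 0.34 (adjusted p = 0.0311). Tdrd9 had the largest value, 1.65 ± 0.41, with an adjusted p of 0.0507. No member was called with quantile normalization or when any 1 of the 4 days was left out, with 3 to 5 of the 9 at an unadjusted p under 0.05. Tdrd1 also lost its call with the arrays as deposited and with no common limit (adjusted p = 0.06236 and 0.07378). For Tdrd5, Tdrd12 and Asz1 the values were 0.13 (95% interval -0.52 to 0.77), 0.39 (-0.05 to 0.83) and 0.29 (-0.31 to 0.89).

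Of 18 other piRNA pathway genes, 15 had a probe, and most of these fell as well. In male knockouts 13 of 15 fell and none rose (median -3.27), and in female knockouts 10 of 15 fell and none rose (median -2.47), beside 12.6% and 13.0% of all tested genes that fell. Of the 15, 5 (Piwil1, Henmt1, Stk31, Rnf17 and Tdrd6) passed the filter only through heterozygous samples, with 6 to 8 of 8 knockout samples at the limit, so the counts and medians do not stand for the list as a whole. Stk31, a Tudor-domain kinase relative, fell (-8.54 ± 0.53 in males and -8.34 ± 0.53 in females, with 3 of 4 knockout samples at the limit in each sex), and Ddx4, the mouse counterpart of the fly helicase Vasa, fell as well (-7.21 ± 0.45 in males and -7.75 ± 0.45 in females). Gpat2, which codes for a mitochondrial membrane protein, fell too (-5.69 ± 0.39 in males and -5.35 ± 0.39 in females). The adjusted p of these 6 differences lay between 3.543e-05 and 0.0001136. Exd1 followed in males (-4.61 ± 0.28, adjusted p = 5.857e-05) and Rnf17, a Tudor-domain gene, in females (-4.54 ± 0.28, adjusted p = 5.68e-05).

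Mybl1, which codes for the transcription factor A-MYB that switches on piRNA genes in later spermatogenesis, was the only one of the 15 whose knockout difference was called to differ between the sexes. Its ratios were 1.03, 0.63, 1.34 and 1.25 in male knockouts, against 0.966, 1.02, 2.15 and 1.39 in male heterozygotes. In females Mybl1 had 0.211, 0.162, 0.303 and 0.337 in knockouts, against 0.865, 1.53, 4.25 and 2.62 in heterozygotes. Only the female knockout samples stood apart, and the knockout difference in males minus that in females was 2.65 ± 0.36 (adjusted p = 0.0248, and up to 0.252 with 1 day left out, where the call was kept in 1 of 4 cases, and lost with no filter, the mean of all probes or no day block), the opposite direction to Tdrd5. Of all 16582 tested genes, 69 were called in the direction of Mybl1.

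In heterozygous males 4 of the 15 genes rose per day, while 10.7% of all tested genes rose. Henmt1, the methyltransferase that protects the ends of piRNAs, rose by 2.20 ± 0.34 (adjusted p = 0.002207), Piwil1 by 1.64 ± 0.24 (adjusted p = 0.001686), Tex15 by 1.24 ± 0.23 (adjusted p = 0.004945) and Tdrd7 by 0.70 ± 0.15 (adjusted p = 0.01067). Without E12.5 none of these 4 was called (adjusted p of 0.139 to 0.373), and without E15.5 Piwil1 and Tdrd7 were lost too (0.0605 and 0.0673). Piwil1 codes for MIWI, best known from spermatids, and had ratios of 1.35, 10.2, 21.8 and 46.9 in male heterozygotes and 1.25, 2.59, 1.3 and 3.99 in female heterozygotes, with all 8 knockout samples at the limit of 1.13. Its sex difference was 2.43 ± 0.61 (adjusted p = 0.01933). Also different between the sexes were Prmt5, which codes for an arginine methyltransferase (0.57 ± 0.12, adjusted p = 0.01049), and Gpat2, which was lower in males (-0.90 ± 0.22, adjusted p = 0.01853). So 2 of the 15 genes were called higher and 1 lower in males, beside 11.7% and 12.1% of all tested genes. These 3 calls were lost without E13.5 or E14.5, those of Piwil1 and Prmt5 also without E15.5 (adjusted p of up to 0.163 for Piwil1, 0.103 for Prmt5 and 0.123 for Gpat2), and all 3 without the day block or with only the groups compared (up to 0.316). No slope of the 15 genes was called in females, nor a difference of slopes, by limma, with 7 and 4 at an unadjusted p under 0.05.

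Of 4 genes of DNA methylation and silencing, 3 rose over the days in male heterozygotes, while 10.7% of all tested genes rose. Dnmt3l, a cofactor of the DNA methyltransferases, rose by 3.02 ± 0.32 per day in males (adjusted p = 0.0004), and Morc1 rose by 1.17 ± 0.26 (adjusted p = 0.01115) and Dnmt3a by 0.65 ± 0.13 (adjusted p = 0.006574). Without E12.5, E14.5 or E15.5, and with quantile normalization, the slopes of Morc1 and Dnmt3a missed the threshold (adjusted p of up to 0.234 and 0.208), while that of Dnmt3l was called with any 1 day left out. The male slope exceeded the female one for all 3 (adjusted p = 0.009412, 0.04877 and 0.04701), while 2.23% of all tested genes were called in that direction. With 1 day left out the calls of this difference were lost in 4 of 4 cases for Morc1 and Dnmt3a (up to 0.749 and 0.628) and without E12.5, E14.5 or E15.5 for Dnmt3l (up to 0.256), and those of Morc1 and Dnmt3a also with the arrays as deposited, with quantile normalization and with no common limit. Dnmt3b fell in female heterozygotes (-0.30 ± 0.08 per day, adjusted p = 0.03316, but up to 0.439 without E12.5, E14.5 or E15.5) and had -0.23 ± 0.08 in males (adjusted p = 0.05898). Dnmt3l ratios were 0.996, 23.3, 238 and 489.9 in male heterozygotes and 0.755, 0.425, 0.861 and 0.594 in female heterozygotes. In male knockouts, where 12.6% of all tested genes fell, Morc1 (-7.38 ± 0.86), Dnmt3l (-5.01 ± 1.28) and Dnmt3a (-1.25 ± 0.36) fell, with adjusted p of 0.001206, 0.01783 and 0.02727. At E12.5 the male knockout sample was above the heterozygous one for Dnmt3l (0.62, log2) and Dnmt3a (0.05). Without E13.5, E14.5 or E15.5 neither of these was called (up to 0.113 for Dnmt3l and 0.159 for Dnmt3a), whereas Morc1 was called with any 1 day left out. In female knockouts Morc1 alone fell (-3.15 ± 0.86, adjusted p = 0.0228), beside 13.0% of all tested genes. That call was lost without E13.5, E14.5 or E15.5 and with no filter (up to 0.0993).

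Of 8 relatives of the members that were listed as genes somatic cells use, 1 fell in male knockouts (Gtsf1l, -6.61 ± 1.02, adjusted p = 0.003213), beside 12.6% of all tested genes, and 1 rose in female knockouts (Mov10, 0.43 ± 0.12, adjusted p = 0.02567), beside 20.9%. The medians over the 8 were 0.05 in males and -0.08 in females. The fall of Gtsf1l, called with any 1 day left out, goes against the label of this list. The rise of Mov10 was lost with the arrays as deposited, without the day block, with only the groups compared and without E12.5, E13.5 or E14.5 (up to 0.212). Gtsf1l, the relative of Gtsf1, was also higher in male than in female heterozygotes (4.88, 95% interval 2.61 to 7.14, adjusted p = 0.008481) and fell per day in female heterozygotes (-2.45 ± 0.40, adjusted p = 0.004606). The first call was lost without E13.5, E14.5 or E15.5 (up to 0.107) and the second without E12.5, E14.5 or E15.5 (up to 0.110). Ago3 was lower in male heterozygotes (-0.79 ± 0.15, adjusted p = 0.005814), also with any 1 day left out. Ago2 fell per day in them (-0.86 ± 0.24, adjusted p = 0.03467), beside 964 of 16582 tested genes. That call was lost with the arrays as deposited, with no filter and without E12.5, E14.5 or E15.5 (up to 0.297).

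**Figure D4:**
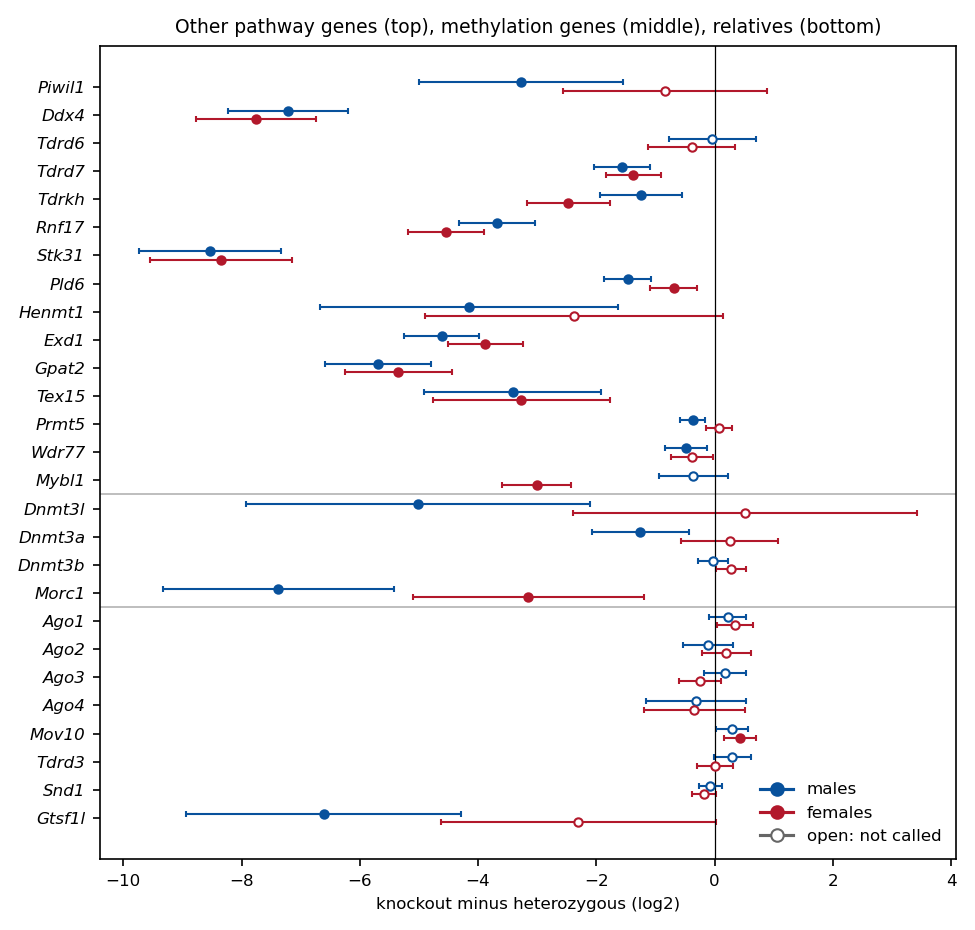
Knockout minus heterozygous difference (log2, horizontal axis, limma estimate with 95% interval) of other piRNA pathway genes, methylation genes and relatives of the members in male (blue) and female (red) gonads, filled where called. Most pathway genes lie well left of 0 in both sexes, from -8.54 for Stk31 in males, whereas the 4 Argonaute genes lie between -0.34 and 0.34 and Mybl1 at -0.36 in males and -3.01 in females.

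The heterozygous patterns of the 4 members with the widest range over the 8 heterozygous samples were set against those of 15351 genes above the limit in all 8. The range was 120.5-fold for Tdrd9, 58.7-fold for Gtsf1, 39.3-fold for Tdrd1 and 11.01-fold for Mael. By the root mean square difference of log2 values after each gene's mean was removed, the gene outside the 10 nearest to Tdrd9 was Nxf2 (0.64), an X-linked RNA export factor gene. Nearest to Gtsf1 was Mageb4 (0.45), nearest to Tdrd1 was Mapk10 (0.30), and nearest to Mael was Cfap70 (0.31). The nearest other members were Tdrd1 for Tdrd9 (0.78), Tdrd1 for Gtsf1 (0.80), Piwil2 for Tdrd1 (0.73) and Mov10l1 for Mael (0.58). The nearest of 15351 genes can be closer merely because the other members are so few. These distances therefore do not show whether members are less like each other than like other genes. These likenesses rest on the same 8 samples and carry no test.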

How the data were processed

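The deposited values are linear ratios per probe. Per the submitters' processing notes the arrays were read with Agilent Feature Extraction 9.5; the authors' scaling of arrays, centring of probes and joining of replicates are not given in the sources used here, and that the values are ratios was read from the values. After 93 controls were removed from the 41267 probes, 32664 have 1 gene symbol, 45 several and 8465 none. Weak signals shared a limit per sample, which was recovered with a tolerance of 0.0002 (log2); limits differed by up to 1.08 (log2). Arrays were scaled to 1 common 75th percentile over 28360 probes never at the limit (shifts of -0.26 to 0.33, log2), values were raised to each probe's highest limit, and log2 was taken. The test took genes that exceeded the limit in 4 or more of 16 samples, by the probe least often at the limit and, among equals, with the highest mean, which left 16582 genes.

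All 16 samples were fitted with limma 3.58.1 in R 4.3.3 (lmFit, eBayes with trend), with a term for each sex and day (knockout differences, 6 residual degrees of freedom) or each genotype and day (sex differences, 6), or a mean and slope per group (8). Errors with ± are limma standard errors (log2, n = 4 days), shared by all groups of a fit. Groups at the limit add little spread, so errors of genes with such groups may be too small. Fits of only the groups compared were not run for slopes. P-values were adjusted by Benjamini-Hochberg over 16582 genes, with a threshold of 0.05. Samples of the same day pair: their deviations from group means correlated at 0.516 to 0.713 (male knockout and heterozygous), 0.478 to 0.758 (female) and 0.297 to 0.482 (male and female heterozygous). A fold against a group wholly at the limit is a lower bound. The recovery of the limits and the fit of knockout differences were tested on simulated data. Arrays give no counts, so their number limits precision.

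The 10 genes and the lists were chosen with earlier results of these data known: the knockout differences of Mael, Gtsf1, Asz1 and Tdrd5 were among those, so their values here are no independent support. Named were the 10 genes, the 4 genes of each other list with the largest called differences, and the genes most like the 4 members of widest range. Fkbp6, Pnldc1 and Spocd1, and the markers Gcna and Insl3, had no probe under these symbols. Alternatives were other scalings, no common limit, the mean of all probes, no filter, array weights, no day block, fewer samples in the fit, each day left out, and, added after seeing the data, each probe tested separately.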

Additional observations from a re-analysis of the deposited data

Results flagged for a closer look

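In the male knockout group the E12.5 sample of Mov10l1 lay at -3.20 (log2 ratio), while the other 3 samples were at the limit of -5.01, so any measured value would stand apart there. In the female knockout group the E13.5 sample of Gtsf1 lay at -4.96, below the other 3 samples, whose median was -3.96. Both were found by Dixon's test at the 95% level in 36 groups of 4 samples, where chance flags about 1 in 20 groups.

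The knockout difference of Tdrd5 differed between the sexes, by -4.79 (log2, males minus females). The slope per day in heterozygotes was steeper in males than in females by 1.38 (log2 per day) for Piwil2 and by 1.57 for Tdrd1. These differences passed a test of the difference itself. The Tdrd5 call was lost with no filter and without E13.5, E14.5 or E15.5. Those of Piwil2 and Tdrd1 were lost with quantile normalization and with any 1 day left out, and that of Tdrd1 also with the arrays as deposited and with no common limit.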

How the results depend on the processing

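The falls in knockouts held best. In male knockouts 9 of 9 members were called in every setting that kept all days except when only the groups compared were fitted (8), and 8 to 9 with 1 day left out; in female knockouts 8 or 9 were called with all days, and 6 to 9 with 1 left out. No replicate block, in a model without the pairing by day, left 9 members lower in male and 8 in female knockouts, and 1 (Tdrd5) each for the male minus female knockout effect and the sex difference. For the difference of the knockout effect 1 member was called, 0 with no filter (2 at an unadjusted p under 0.05, limma), 2 with array weights and 0 to 3 with 1 day left out. For the sex difference 2 were called (Tdrd5 and Tdrd12), 1 (Tdrd5) with quantile normalization or with only the groups compared, 7 with array weights and 0 to 7 with 1 day left out. With no filter both of these calls were lost and 1 other member, Asz1, was called. For female slopes 1 was called, 0 with the arrays as deposited, no filter or array weights (4, 3 and 2 at an unadjusted p under 0.05), and 0 to 1 with 1 day left out. For male slopes 5 were called, 4 to 7 with all days and 0 to 6 with 1 left out. For the difference of slopes 2 were called, 1 (Piwil2, without Tdrd1) with the arrays as deposited or no common limit, 0 with quantile normalization, 3 with the mean of all probes or array weights, and 0 with each day left out.

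Among members, signs turned only for differences and slopes that no setting called. The knockout effect of Mov10l1, males minus females, was 0.066 with quantile normalization, 0.12 with no common limit, 0.12 with the mean of all probes, 0.10 with array weights, 0.28 by its other probe, and -0.61 to 0.52 with 1 day left out (0.19 without E14.5). The male minus female difference in heterozygotes was -0.15 for Mael with quantile normalization (-0.20 to 0.32 with 1 day left out) and -0.28 for Mov10l1 by its other probe. The difference of slopes was -0.22 for Tdrd5 with quantile normalization, and with 1 day left out -0.78 to 0.96 for Tdrd5, -0.18 to 0.76 for Asz1 and -0.20 to 0.67 for Tdrd12. The slope of Tdrd5 was 0.12 in female heterozygotes with the arrays as deposited and -0.27 in male heterozygotes with quantile normalization. With 1 day left out, female slopes were -0.035 to 1.63 for Gtsf1, -0.60 to 0.81 for Mov10l1 and -0.41 to 0.45 for Tdrd5 (0.033 without E14.5), and male slopes were -0.57 to 0.11 for Tdrd12 and -0.33 to 0.55 for Tdrd5. The cause of these turns was not tested.

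Counts over all genes moved more. In male knockouts 5678 genes were called, 1943 with the arrays as deposited, 1037 without the block, 2198 without E13.5 and 1564 without E14.5; in female knockouts 5608 genes were called, 2296 as deposited, 1148 without the block, 3579 with only the groups compared, 1546 without E13.5 and 1842 without E14.5. With the arrays as deposited 16.9% of the calls in male and 20.9% in female knockouts were higher, against 63.2% and 61.7%, and the median of all genes was 0.01 and 0.00 as deposited, against 0.12 and 0.11 (log2). With quantile normalization 50.3% of the calls in male knockouts were higher. For slopes the share of rising calls was 91.4% in males and 91.0% in females as deposited, 52.6% and 51.1% with quantile normalization, and 64.8% and 65.9% in the fits reported; the median slope was 0.14 and 0.16 as deposited, against 0.02 and 0.04. For the male minus female knockout effect 59.7% were higher as deposited, against 47.6%. For the difference of the knockout effect 145 genes were called, 0 to 1123 with 1 day left out, 72 as deposited, 95 with no common limit, 44 with no filter, 41 without the block and 891 with weights. For the sex difference 3947 were called, and 2676 without the block, 2028 with only the groups compared, 1450 to 5375 with 1 day left out. For female slopes 1620 were called, 3089 as deposited, 803 with weights and 47 to 1289 with 1 day left out; for male slopes 2737, and 6520 with weights and 261 to 2820; for their difference 555, and 302 as deposited, 238 with quantile normalization and 0 to 336. Signals at the limit hide the full size of the falls of Asz1, Mov10l1 and Mael.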

Other observations

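By the probes used in the test, some members kept a measurable signal in the knockouts. For genes with 2 probes, the one least often at the limit was used, and that choice itself favours such signal. The knockout ratios of Tdrd1 ran from 0.358 to 0.556 in males and from 0.439 to 0.903 in females. By the other Tdrd1 probe, 6 knockout samples were at the limit. The Tdrd9 knockout ratios were highest at E12.5 (0.764 in males, 0.582 in females) and lowest at E15.5 (0.187 and 0.166). Between the knockout sexes, Tdrd5 was lower in the male sample on each day, by -0.77 at E12.5, -1.41 at E13.5, -3.61 at E14.5 and -4.23 at E15.5 (log2, males minus females, 1 pair of samples a day). Tdrd12 was 0.11, -1.06, -1.35 and -1.42 on the same days. Piwil2 ran the other way, at 0.54, 0.35, 0.89 and 0.33. By the other Tdrd12 probe, the E12.5 knockouts had -1.81 in the male and the limit of -3.20 in the female (log2 ratios). At E13.5 that probe had -2.66 in the male and -2.09 in the female knockout. At E14.5 and E15.5 neither sex exceeded its limit. The other Tdrd5 probe measured no knockout signal above its limit, so it cannot order the sexes. No test was run on these differences between knockouts.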
